A study of Homo sapiens with 14 samples.

Results

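The mitochondrial genome and the nuclear genes that express it were followed in N-MYC amplified CHP-134 neuroblastoma cells, by name, as 34 genes of the 17810 and 19143 listed in the count tables of 2 RNA-seq experiments. The members are the 13 protein-coding genes of mitochondrial DNA and 21 nuclear genes whose products transcribe, process, copy or translate it, or regulate those genes. They were picked by symbol, and all 34 passed the filter on low counts in both tables. In the first experiment, cells carrying a Tet-On lentivirus for enhanced green fluorescent protein (EGFP, 3 libraries) or for OmoMYC (3 libraries) were selected in G418 and given 1 µg/ml doxycycline for 3 days. OmoMYC, a genetic MYC inhibitor, is an altered MYC dimerization domain. The lines were engineered separately, so differences between lines are part of each value, and doxycycline, which can slow mitochondrial translation, was given to both. In the second, parental cells without any tagged protein received 500 nM dTAG47, a degrader of FKBP12(F36V)-tagged proteins, or DMSO for 18 hr (4 libraries each). RNA was total RNA depleted of ribosomal RNA. The study names the replicates as biological.

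Human mitochondrial DNA is a small circle that encodes 13 proteins of the respiratory chain and ATP synthase, together with the ribosomal and transfer RNAs needed to make them. Both strands are transcribed as long precursors by the polymerase POLRMT with the DNA-packaging factor TFAM and the initiation factor TFB2M, and the precursors are then cut, largely at the transfer RNAs. Every protein in these steps is encoded in the nucleus and imported, so the level of a mitochondrial mRNA depends on genome copies, transcription and RNA decay, which counts cannot separate. In bulk RNA, fewer cells of a kind and less RNA per cell cannot be told apart either, and each value is relative to the rest of the RNA.

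In the GRCh37 annotation used here the 13 genes lie on a mitochondrial sequence of 16569 bases with a GC content of 44.4%. Of these genes 12 lie on the plus strand as annotated, and MT-ND6 lies on the minus strand. MT-ATP8 and MT-ATP6 share 46 bases and MT-ND4L and MT-ND4 share 7. The shared stretch of MT-ATP8 and MT-ATP6 (chrM:8527-8572 of GRCh37, plus strand) is printed because reads inside it cannot be given to a single gene, with the ATP6 start codon and the ATP8 stop codon in capitals.
MT-ATP8 and MT-ATP6: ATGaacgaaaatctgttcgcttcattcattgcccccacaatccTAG
How reads in shared bases, reads antisense to a gene and reads that also match nuclear copies of mitochondrial DNA were counted is not given in the sources used here. Values of MT-ND6, which faces the transcripts of the other strand, and of the overlapping genes are therefore uncertain in that respect.

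Libraries held 28060817 to 38358128 counts in the EGFP and OmoMYC experiment and 40861430 to 53451641 in the parental experiment. A gene was called changed at an adjusted p-value below 0.05 in edgeR's quasi-likelihood test, with Benjamini-Hochberg adjustment over all tested genes. Induced and suppressed mean only called higher or lower in OmoMYC than in EGFP libraries, line differences included. CPM is a gene's count scaled to the library's depth after TMM. OmoMYC libraries counted MYC, the source of the OmoMYC sequence, at 522 ± 7.85 CPM against 0.61 ± 0.0684 in EGFP libraries (SD, n = 3 each). Of 9 adrenergic neuroblastoma markers, 7 reached a mean of 1 CPM in EGFP, DMSO and dTAG47 libraries and 8 did in OmoMYC libraries, with TH below it in every group. Their summed level, per total count, was 3690 to 4360 CPM with EGFP and 3580 to 3750 with OmoMYC. Of 10 mesenchymal markers 7 reached 1 CPM, and their sum was 445 to 462 CPM with EGFP and 371 to 406 with OmoMYC, while DCN, LUM and COL3A1 stayed below it. MYCN made up most of the first sum (2700 and 2250 CPM) and TWIST1 of the second (281 and 212 CPM). With OmoMYC, 3 of the 9 adrenergic markers were called higher and 2 lower, with log2 fold changes of -0.56 to 1.66. Among the 9 mesenchymal markers tested 3 were called higher and 3 lower. Over all tested genes 27.3% were called higher and 25.7% lower, so nothing is read from these counts. Of 6 blood markers 4 were listed for the engineered lines, where 0 reached 1 CPM, and 1 did in parental cells. The part of these markers in the results was not tested.

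EGFP replicate 1 stood apart from the other EGFP libraries in the mitochondrial genes. On the log2 scale its MT-ND6 lay 2.18 below the mean of replicates 2 and 3, with 5831 counts against 23303 and 24017. MT-ND5 and MT-CYB each lay 0.97 below, MT-ND1 0.86, MT-ND2 0.59 and MT-ND4 0.46, while MT-CO3 was level with the others. Each OmoMYC result on these genes is therefore given with and without this library.

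The share of all counts that fell on the 13 mitochondrial genes was larger with OmoMYC. It was 2.54%, 3.36% and 3.33% in EGFP replicates 1 to 3 and 4.48%, 4.53% and 4.15% in the OmoMYC replicates. The groups did not overlap, with means of 3.08% ± 0.467 and 4.39% ± 0.206 (SD, n = 3 each), a difference of 1.31 percentage points that was 1.04 without EGFP replicate 1. In parental cells the share was 4.67%, 4.89%, 5.16% and 5.06% with DMSO and 5.10%, 5.01%, 5.15% and 5.19% with dTAG47. These groups overlapped, and their means of 4.94% ± 0.215 and 5.11% ± 0.0791 (SD, n = 4 each) differed by 0.172 percentage points. No test was run on this sum over the members. The tables were made separately, so levels are not compared between experiments.

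**Figure D1:**
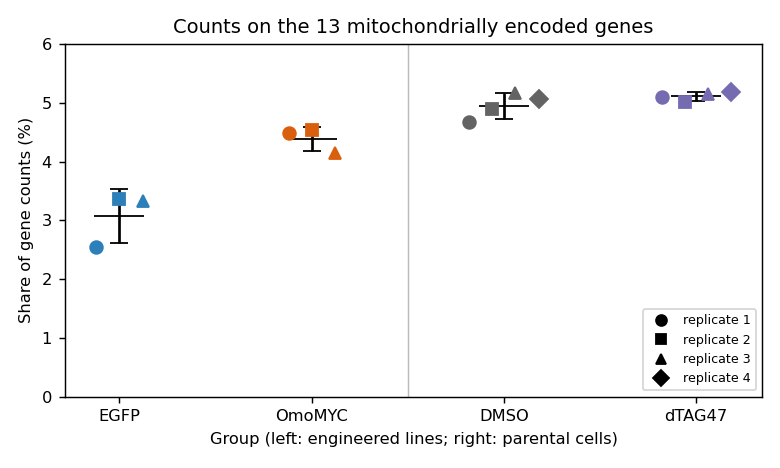
Share of each library's gene counts on the 13 mitochondrially encoded genes, in percent, by group; symbols are replicates and black bars are the mean ± SD. All 3 OmoMYC libraries (4.15% to 4.53%) sit above all EGFP libraries (2.54% to 3.36%), while DMSO and dTAG47 overlap.

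Per kilobase of annotated exon, the cytochrome oxidase mRNAs were the most counted of the 13 in each group. MT-CO1 stood at 5670 CPM per kilobase with EGFP and 6740 with OmoMYC, MT-CO2 at 4550 and 6450, and MT-CO3 at 3980 and 5040. These encode the catalytic core of complex IV. MT-ND3, a complex I subunit, was lowest in every group, at 616 CPM per kilobase with EGFP and 965 with OmoMYC. MT-ND6 moved from rank 10 with EGFP to rank 8 with OmoMYC, and from rank 9 without EGFP replicate 1. Without that library the EGFP levels were 5820 CPM per kilobase for MT-CO1, 4770 for MT-CO2, 3980 for MT-CO3 and 626 for MT-ND3.

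Of the 13 mitochondrial genes 10 were induced and 0 suppressed with OmoMYC, where 27.3% of all 13803 tested genes were called higher and 25.7% lower. In all 13 genes each OmoMYC library lay above each EGFP library, against 62.3% of tested genes whose groups did not overlap in either direction. The median log2 fold change of the 13 genes was 0.50, against 0.01 over all tested genes. Without EGFP replicate 1 the median was 0.42 and all 13 genes were called. Over the 6 libraries left out in turn, between 7 and 13 of the genes were called, with 7 when OmoMYC replicate 2 was left out. The share of all tested genes called was not counted in these fits, and the 27.3% is not theirs.

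Complex I, which oxidizes NADH, takes 7 of its subunits from this genome. MT-ND6 was counted at 184, 835 and 827 CPM with EGFP and at 1250, 1190 and 1390 with OmoMYC. EGFP replicate 1 was far below the rest, and the groups did not overlap. The log2 fold change was 1.05 ± 0.59 (SE) and was not called (adjusted p = 0.192), whereas without EGFP replicate 1 it was 0.60 and called (adjusted p = 3.03e-07). MT-ND5 stood at 1450, 2790 and 2880 CPM with EGFP and 4310, 4380 and 4460 with OmoMYC. Every OmoMYC library was above the highest EGFP library, and the difference was 0.88 on the log2 scale (SE 0.20, adjusted p = 0.00383), or 0.61 without EGFP replicate 1. MT-ND4 rose from 2240, 3120 and 3040 CPM to 5030, 5160 and 4750 CPM, by 0.83 on the log2 scale (SE 0.11, adjusted p = 0.000149). The groups were well separated, and the value was 0.68 without EGFP replicate 1. Its overlapping neighbour MT-ND4L stood at 251, 301 and 300 CPM with EGFP and 479, 516 and 461 with OmoMYC. MT-ND4L rose by 0.77 on the log2 scale (SE 0.08, adjusted p = 4.27e-05). MT-ND3 stood at 206, 234 and 199 CPM with EGFP and 331, 352 and 320 with OmoMYC. Here EGFP replicate 1 was between the others, and the log2 difference of 0.65 (SE 0.08, adjusted p = 7.77e-05) was 0.61 without it.
MT-ND1 and MT-ND2, the first protein genes after the ribosomal RNAs, were not called. MT-ND1 averaged 2910 ± 889 CPM with EGFP and 3990 ± 96.3 with OmoMYC (log2 fold change 0.45, adjusted p = 0.0523), and MT-ND2 averaged 1860 ± 409 and 2320 ± 124 (0.32, adjusted p = 0.0644). Without EGFP replicate 1 their log2 fold changes were smaller, at 0.20 and 0.13, and both were called.

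MT-CYB, the mitochondrial subunit of complex III, was counted at 1520, 2910 and 3050 CPM with EGFP and 4300, 4210 and 4090 with OmoMYC. Its groups did not overlap, and the log2 difference of 0.75 (SE 0.20, adjusted p = 0.00919) was 0.48 without EGFP replicate 1. Leaving out EGFP replicate 3 ended the call (adjusted p = 0.0544). Among the complex IV genes, MT-CO2 averaged 3110 ± 312 CPM with EGFP and 4410 ± 342 with OmoMYC (log2 fold change 0.50, adjusted p = 0.000654), and MT-CO3 3120 ± 40.4 and 3950 ± 218 (0.34, adjusted p = 0.000955). MT-CO1 averaged 8740 ± 428 and 10400 ± 1010 CPM (0.25, adjusted p = 0.0179). The ATP synthase subunits MT-ATP6 (2190 ± 82.1 to 2700 ± 230 CPM) and MT-ATP8 (201 ± 24.8 to 247 ± 15.9 CPM) each had a log2 fold change of 0.30, with adjusted p-values of 0.00491 and 0.0199. MT-CO1 and MT-ATP8 were not called without OmoMYC replicate 1 or 2, nor MT-ATP6 without OmoMYC replicate 2. Without EGFP replicate 1 the log2 fold changes were 0.42 for MT-CO2, 0.32 for MT-CO3, 0.20 for MT-CO1, 0.26 for MT-ATP6, 0.19 for MT-ATP8 and 0.67 for MT-ND4L, each called. In all, 6 of the 10 calls held whichever library was left out, those of MT-CO2, MT-CO3, MT-ND3, MT-ND4, MT-ND4L and MT-ND5.

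**Figure D2:**
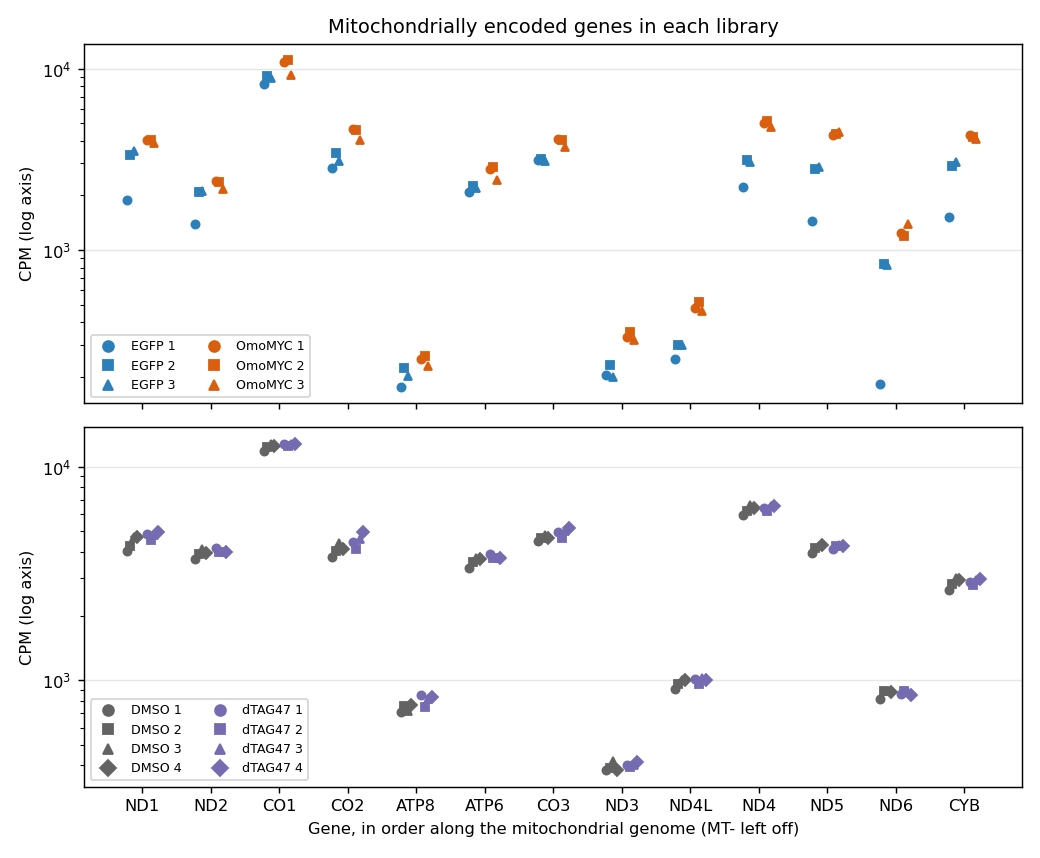
CPM (log axis) of the 13 mitochondrially encoded genes in each library, in their order along the genome; colours are groups and symbols replicates, with EGFP and OmoMYC in the upper panel and DMSO and dTAG47 in the lower. EGFP replicate 1 is lowest at MT-ND6 (184 CPM against 835 and 827), while DMSO and dTAG47 libraries lie close together at each gene.

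Read in order of position along the genome, the changes were larger in the last genes. This order, and the cut after MT-CO3, were looked at after the values were seen and carry no test. Non-overlap of ranges at such a cut is description only. The first 7 genes, from MT-ND1 to MT-CO3, had log2 fold changes of 0.25 to 0.50 with a median of 0.32. The last 6, from MT-ND3 to MT-CYB, had 0.65 to 1.05 with a median of 0.80, so the ranges did not overlap. Without EGFP replicate 1 the ranges were 0.13 to 0.42 and 0.48 to 0.68, again without overlap. Spearman's rho of gene order with log2 fold change was 0.77 over the 13 genes, and 0.73 to 0.79 as single libraries were left out. MT-ND6 lies on the other strand and is transcribed the opposite way, and over the 12 plus-strand genes rho was 0.73, or 0.80 without EGFP replicate 1. The last 5 of these had 0.65 to 0.88. The 13 points share their libraries and, for the overlapping pairs, reads. With dTAG47 the first 7 genes had a median of 0.09 and the last 6 one of 0.02, with a rho of -0.71.

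**Figure D3:**
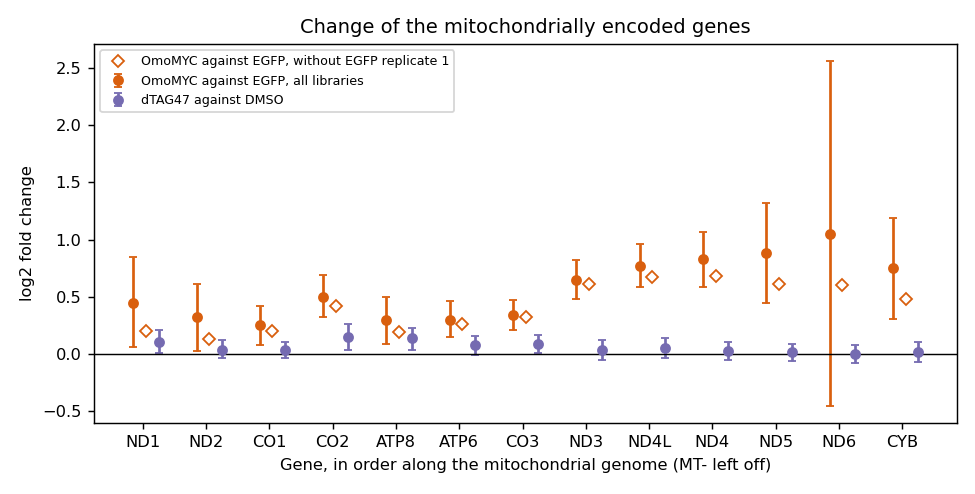
Log2 fold change of each mitochondrially encoded gene in order along the genome, with 95% intervals for the fits on all libraries; open diamonds are the OmoMYC values without EGFP replicate 1. OmoMYC values of the last 6 genes (0.65 to 1.05) lie above those of the first 7 (0.25 to 0.50). That cut was made with the values known. The dTAG47 values lie between 0 and 0.15.

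The nuclear members went mostly the other way under OmoMYC. Of 21 tested, 11 were suppressed and 1 was induced, beside 25.7% and 27.3% of all tested genes. The median log2 fold change of the 21 was -0.26, against 0.01 over all tested genes, with 19 below 0. POLG2 is counted among the 21 and the 19 despite its low counts. The median was -0.36 without EGFP replicate 3 and -0.25 without EGFP replicate 1. The nuclear members also differed among EGFP libraries. On the log2 scale the median of 20 of them lay 0.19 above the other EGFP libraries in replicate 1 and at -0.20 in replicate 3, and POLG2 was left out of this for its low counts. In 10 of the 12 cases the call held whichever library was left out, the exceptions being SUPV3L1 and MTIF3.

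Of the 4 genes listed under mitochondrial transcription 3 were suppressed, beside 25.7% of all tested genes called lower. TFAM (ENSG00000108064.6, hg19 chr10:60145105-60158980) packages mitochondrial DNA and bends its promoters. It was counted at 126, 97.8 and 91.3 CPM with EGFP and at 73.1, 75.0 and 70.7 with OmoMYC. All OmoMYC libraries were below all EGFP libraries, and the log2 difference was -0.53 (SE 0.11, adjusted p = 0.00258), or -0.39 without EGFP replicate 1. TFB1M (ENSG00000029639.6, hg19 chr6:155577268-155635627), a methyltransferase of the small mitochondrial ribosomal RNA, stood at 7.32, 5.84 and 5.13 CPM with EGFP and 3.75, 3.76 and 3.39 with OmoMYC. This was the largest fall among the members, at -0.75 on the log2 scale (SE 0.15, adjusted p = 0.00216) that was -0.61 without EGFP replicate 1. TFB2M, which melts the promoter for the polymerase, stood at 28.6, 24.9 and 20.7 CPM with EGFP and 19.4, 18.4 and 19.3 with OmoMYC. EGFP replicate 3 was close to the OmoMYC libraries, and the log2 difference was -0.38 (SE 0.11, adjusted p = 0.0172). With single libraries left out it ran from -0.53 to -0.27, with adjusted p-values up to 0.0499. Its call was lost in 1 of 16 alternatives. POLRMT, the polymerase itself, was counted at 235, 271 and 310 CPM with EGFP and 271, 250 and 283 with OmoMYC. Its groups overlapped, and the log2 fold change of -0.02 (95% interval -0.23 to 0.19) was not called.

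Promoters of these genes, taken from RefSeq on GRCh38.p14 as the 250 bases before to 50 after each start, were searched on both strands for 3 core motifs. RefSeq promoters matched 20 of the 21 nuclear members. The core for NRF1, a factor known for activating genes of mitochondrial function (GCGCA, any base, then GCGC), was in the promoters of TFAM, POLRMT, TFB1M and POLG2, which is 4 of the 20 against 6.98% of all genes. Of these 4, TFAM and TFB1M were suppressed, and POLRMT and the thinly counted POLG2 were not called. The ETS core CCGGAAG was in 10 of the 20 against 12.2% of all genes. Of these 10, TFB1M, SLIRP, SSBP1 and MTIF2 were suppressed, and POLRMT, ELAC2, POLG2, GFM1, GFM2 and TUFM were not called. The E-box CACGTG was in 1 of the 20, PPARGC1A, against 8.77%. The shares for all genes are over 27305 genes with a RefSeq promoter, whether tested here or not. A match is only a run of letters in this window, and the NRF1 core can read the same on both strands and overlap itself. The promoters of TFAM, TFB1M and POLRMT are printed because they share the NRF1 core but not the change, with matches to any of the 3 motifs in capitals. NRF1 core matches begin at -63 in TFAM, -132 in TFB1M, and -24 and -18 in POLRMT.
TFAM (chr10:58385160-58385459, plus strand): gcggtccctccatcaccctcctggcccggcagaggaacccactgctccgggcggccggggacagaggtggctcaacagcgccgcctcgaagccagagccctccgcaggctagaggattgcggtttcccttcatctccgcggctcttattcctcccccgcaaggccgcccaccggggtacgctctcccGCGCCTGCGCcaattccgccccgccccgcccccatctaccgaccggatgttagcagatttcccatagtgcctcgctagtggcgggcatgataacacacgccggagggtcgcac
TFB1M (chr6:155314435-155314734, minus strand): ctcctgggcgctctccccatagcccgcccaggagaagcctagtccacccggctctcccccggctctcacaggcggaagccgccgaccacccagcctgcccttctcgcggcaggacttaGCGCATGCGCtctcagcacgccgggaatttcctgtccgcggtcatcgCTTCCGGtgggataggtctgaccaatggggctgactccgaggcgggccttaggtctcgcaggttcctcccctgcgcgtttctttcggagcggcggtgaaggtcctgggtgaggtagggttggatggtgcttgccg
POLRMT (chr19:633488-633787, minus strand): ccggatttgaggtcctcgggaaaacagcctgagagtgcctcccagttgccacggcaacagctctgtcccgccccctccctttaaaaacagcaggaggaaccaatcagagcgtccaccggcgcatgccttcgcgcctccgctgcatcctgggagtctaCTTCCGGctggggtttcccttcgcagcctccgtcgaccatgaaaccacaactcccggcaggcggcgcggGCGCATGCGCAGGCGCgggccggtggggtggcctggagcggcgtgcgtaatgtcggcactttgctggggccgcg

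Of the 6 genes of mitochondrial RNA handling 5 were suppressed, beside 25.7% of all tested genes called lower. PNPT1, the polynucleotide phosphorylase of the RNA degradosome, was counted at 128, 122 and 109 CPM with EGFP and 77.0, 84.2 and 74.0 with OmoMYC. The groups were well separated, with a log2 difference of -0.61 (SE 0.08, adjusted p = 0.000201). SLIRP, which binds and stabilizes mitochondrial mRNAs together with LRPPRC, stood at 68.5, 64.1 and 55.2 CPM with EGFP and 43.1, 42.9 and 38.0 with OmoMYC. The log2 difference was -0.60 (SE 0.10, adjusted p = 0.000494), and the OmoMYC libraries were all lower. LRPPRC itself fell from 526 ± 55.0 to 417 ± 20.3 CPM (-0.33, adjusted p = 0.00555). FASTKD2, an RNA-binding protein of the mitochondrial RNA granule, fell from 50.2 ± 6.64 to 38.0 ± 2.85 CPM (-0.40, adjusted p = 0.00777). The helicase SUPV3L1, partner of PNPT1, fell from 60.1 ± 0.665 to 52.5 ± 3.19 CPM (-0.20, adjusted p = 0.0446) and lost its call when EGFP replicate 2 or any one OmoMYC replicate was left out. ELAC2, which cuts precursors behind the transfer RNAs, had a log2 fold change of -0.07 (95% interval -0.22 to 0.08) and was not called.

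Of the 3 replication genes 1 was suppressed, a share near the 25.7% of all tested genes called lower. SSBP1, the single-stranded DNA binding protein, fell from 112 ± 19.8 to 76.5 ± 3.04 CPM (log2 fold change -0.55, adjusted p = 0.00231). POLG, the catalytic subunit of the DNA polymerase, had a log2 fold change of -0.03 (95% interval -0.22 to 0.15). Its accessory subunit POLG2 was counted under 2 identifiers in this table, each below 1 CPM. The tested one had 8 to 15 counts per library and a log2 fold change of -0.44 (95% interval -1.17 to 0.30), too wide to place. The same identifier stood at 49.2 ± 1.95 CPM with DMSO in the parental table, where it is the only one for POLG2, so the counts here are not read as the level of POLG2 in CHP-134 cells. The reason for the difference was not tested.

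Of the 6 translation factors 2 were suppressed, a share near the 25.7% of all tested genes called lower. The initiation factor MTIF2, which brings the initiator transfer RNA to the ribosome, fell from 64.9 ± 7.78 to 48.5 ± 2.43 CPM (log2 fold change -0.42, adjusted p = 0.00394). MTIF3, another initiation factor, fell from 15 ± 1.43 to 12.6 ± 0.0568 CPM (-0.26, adjusted p = 0.0465) and lost its call when EGFP replicate 2 or any one OmoMYC replicate was left out. The elongation factors were not called. GFM1 had a log2 fold change of -0.08, TSFM one of -0.05 and TUFM one of 0, the last with a 95% interval of -0.14 to 0.14. GFM2, a ribosome recycling factor, had one of -0.23 (adjusted p = 0.0504) and was called in 9 of 16 alternatives (adjusted p = 0.00674 to 0.62 over them), so it lies at the threshold.

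PPARGC1A (ENSG00000109819.4, hg19 chr4:23756664-23905712) was the nuclear member that rose. It encodes PGC-1α, a coactivator known for driving mitochondrial biogenesis through NRF1 and other factors. It was counted at 20, 17.7 and 17.5 CPM with EGFP and at 29.9, 29.2 and 28 with OmoMYC. The libraries of each group lay close together and far from the other group, with a log2 difference of 0.66 (SE 0.09, adjusted p = 0.000144) that was 0.70 without EGFP replicate 1. NRF1 stood at 34.1, 35.7 and 39.1 CPM with EGFP and 34.2, 35.2 and 36.6 with OmoMYC. Its groups overlapped, and the log2 fold change of -0.04 (95% interval -0.22 to 0.14) was not called. PPARGC1A has 2 promoters in the RefSeq table, and the upstream one, the only member promoter with an E-box, is printed with that match, at -123, in capitals. By its GRCh38 position it lies upstream of the hg19 gene span given above. The other promoter held no match to any motif searched. Counts per gene do not tell which promoter was used.
PPARGC1A (chr4:24472856-24473155, minus strand): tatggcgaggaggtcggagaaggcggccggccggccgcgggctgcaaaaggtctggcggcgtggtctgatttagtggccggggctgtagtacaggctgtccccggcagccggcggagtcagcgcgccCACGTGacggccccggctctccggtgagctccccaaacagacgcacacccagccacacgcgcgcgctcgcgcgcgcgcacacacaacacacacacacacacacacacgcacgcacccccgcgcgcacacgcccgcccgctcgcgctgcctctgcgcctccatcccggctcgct

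**Figure D4:**
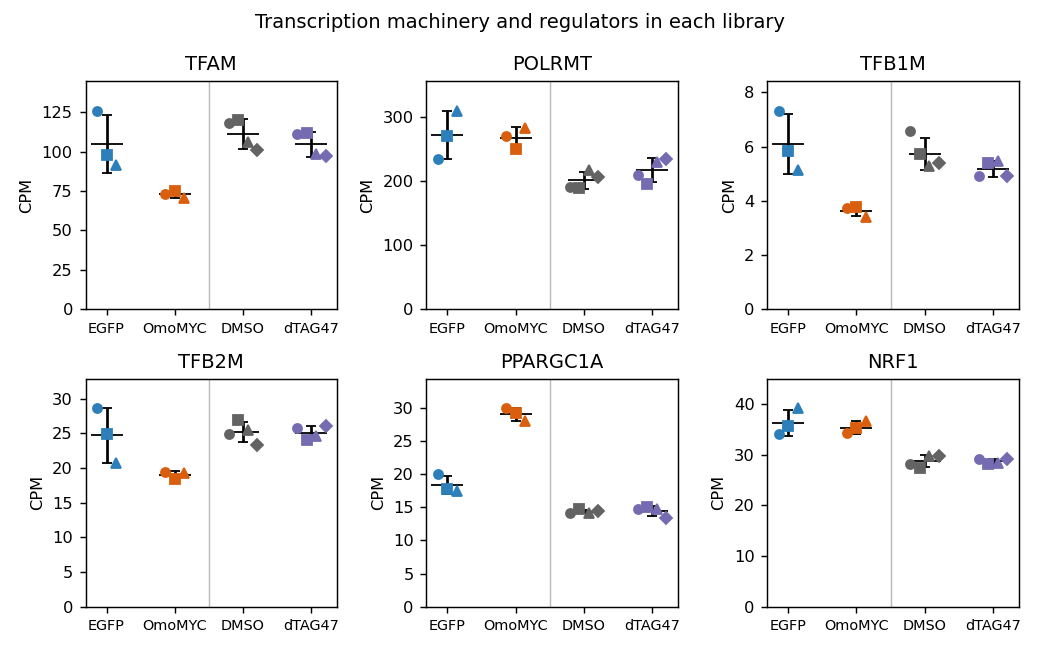
CPM of the 4 genes listed under mitochondrial transcription and 2 regulators in each library, on axes that start at 0. Symbols are replicates (circle, square, triangle and diamond for 1 to 4) and black bars are the mean ± SD. TFAM, TFB1M and TFB2M are lower and PPARGC1A is higher in every OmoMYC library than in every EGFP library, while POLRMT and NRF1 overlap.

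Other genes of the same pathways, 105 symbols in 6 lists, gave 6 induced and 38 suppressed of 103 tested entries under OmoMYC, beside 27.3% and 25.7% of all tested genes. Their median was -0.14 on the log2 scale, against 0.01 over all genes. RNA processing, modification and stability had 15 suppressed and 2 induced of 38, and replication and upkeep of the DNA 5 and 1 of 14. Translation and ribosome assembly had 6 suppressed of 19, the mitochondrial aminoacyl-tRNA synthetases 5 of 16 and transcription 3 of 6, each with 0 induced. Among the other regulators 3 were induced and 4 suppressed of 10. Counts in most of the single lists are small and several lie near the 25.7% called lower over all genes, so nothing is read from them. Among the larger falls was that of TRMT10C, a subunit of mitochondrial RNase P (42.9 ± 6.66 to 25 ± 2.55 CPM, log2 fold change -0.78). DNA2, a nuclease and helicase of nucleus and mitochondria, had -0.76, and TRNT1, which adds CCA ends to transfer RNAs, had -0.57. The largest rises were in PPARGC1B, a relative of PPARGC1A (38.6 ± 1.03 to 62.9 ± 4.84 CPM, log2 fold change 0.70), and in ESRRA, a nuclear receptor that these coactivators bind (0.55). The mitochondrial thymidine kinase TK2 had 0.55 and FASTK had 0.39. These 7 genes had adjusted p-values of at most 0.00644.

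In parental cells 0 of the 34 members were called with dTAG47, beside 0.117% of 14470 tested genes called higher and 0.0415% called lower. By unadjusted p-value 6 members were below 0.05, beside 1053 of the 14470 tested genes. The smallest adjusted p-value of a member was 0.643, and DESeq2 and limma-voom also called 0 members. The median log2 fold change was 0.04 for the mitochondrial genes, none of which was negative, and -0.01 for the nuclear members, against 0 over all genes. Over all 34 members the 95% intervals lay between -0.34, the lower bound for TFB1M, and 0.26, the upper bound for MT-CO2. Groups did not overlap for MT-ATP6 and MTIF3, beside 3.34% of all tested genes.
Among the mitochondrial genes the largest difference was in MT-CO2, at 3780, 4020, 4400 and 4100 CPM with DMSO and 4430, 4120, 4600 and 4930 with dTAG47. The groups overlapped, and the log2 fold change was 0.15 (95% interval 0.04 to 0.26, adjusted p = 0.673). MT-ATP8 stood at 713, 761, 720 and 770 CPM with DMSO and 851, 749, 819 and 836 with dTAG47, a log2 fold change of 0.14 (95% interval 0.04 to 0.23, adjusted p = 0.643). Replicate 2 with dTAG47 was inside the DMSO range, and without it MT-ATP8 was called (0.17, adjusted p = 0.0425). DMSO replicate 1 was the lowest of its group in all 13 mitochondrial genes.

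Parental replicates 1 and 2 differed from 3 and 4 in some members, such as TFAM but not TFB2M, a split the labels do not give. TFAM stood at 118 and 120 CPM in DMSO replicates 1 and 2 and at 106 and 101 in replicates 3 and 4. With dTAG47 it stood at 111, 112, 98.4 and 97.3 CPM, so the same step lay in both groups, and the log2 fold change was -0.09. With a factor for this split, MT-ND1 (0.12, adjusted p = 0.0286), MT-CO2 (0.15, adjusted p = 0.01) and MT-ATP8 (0.14, adjusted p = 0.026) were called higher. POLRMT (0.11, adjusted p = 0.0284) was called higher too and FASTKD2 (-0.12, adjusted p = 0.046) lower. In replicates 3 and 4 alone, 3 mitochondrial genes and 1 nuclear member were called higher and 2 nuclear members lower, and in replicates 1 and 2 alone 0 were called in either direction. The share of all tested genes called was not counted in these fits, so nothing is read from the calls. POLRMT stood at 191, 190, 218 and 206 CPM with DMSO and 210, 195, 230 and 235 with dTAG47, and overlapped between groups. TFB1M stood at 6.57, 5.71, 5.27 and 5.39 CPM with DMSO and 4.92, 5.38, 5.47 and 4.91 with dTAG47, a log2 fold change of -0.15. TFB2M stood at 24.9, 27.0, 25.5 and 23.4 CPM with DMSO and 25.8, 24.0, 24.6 and 26.1 with dTAG47, with a change of 0. PPARGC1A stood at 14.2, 14.7, 14.1 and 14.4 CPM with DMSO and 14.8, 15.1, 14.7 and 13.4 with dTAG47, a change of 0.02. These 3 genes overlapped between groups as well, as did NRF1, at 27.4 to 29.8 CPM with DMSO and 28.1 to 29.2 with dTAG47. The other genes of the pathways gave 0 calls among 105 entries, with a median of 0. Whether OmoMYC and dTAG47 changes differ was not tested, since the tables were fitted apart.

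**Figure D5:**
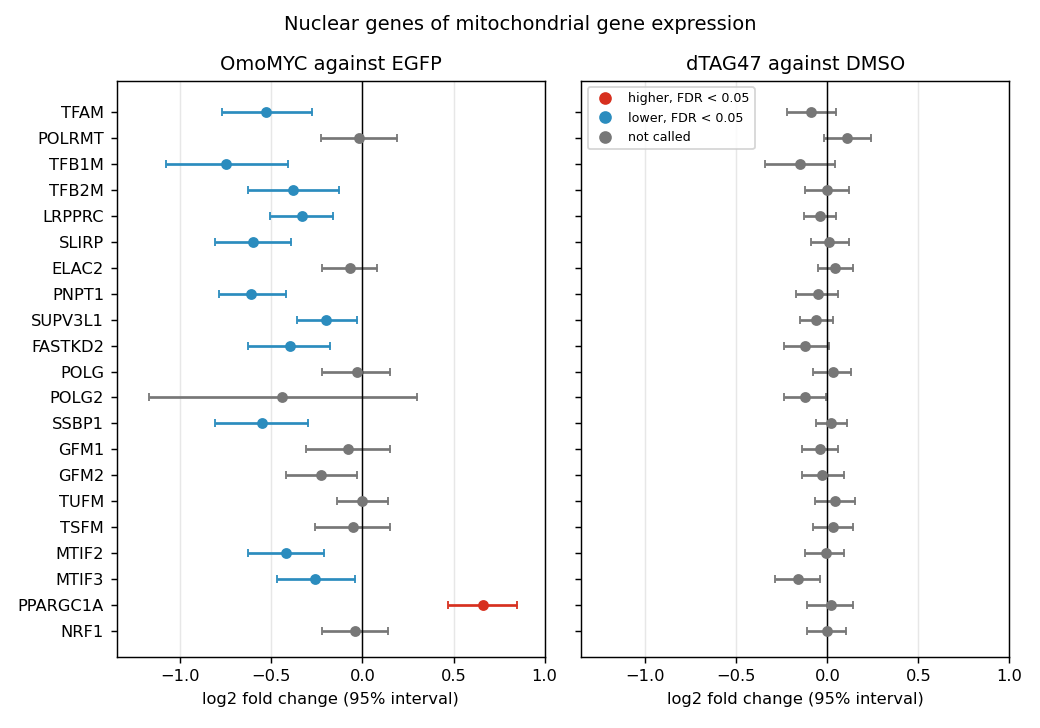
Log2 fold change of the 21 nuclear members with 95% intervals, for OmoMYC against EGFP (left) and dTAG47 against DMSO (right), coloured by call. With OmoMYC 11 are lower and PPARGC1A is higher, while with dTAG47 no member is called and the interval of TFB1M reaches lowest, to -0.34.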

How the data were processed

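RNA-seq libraries of CHP-134 cells were taken as gene counts. The deposited files hold raw counts per gene, which the authors made with FeatureCounts from STAR alignments on hg19, after trimming by Cutadapt, and did not normalize. Annotation, strandedness and the treatment of multi-mapping reads are not given in the sources used here. All 14 sample columns were used. Groups and replicate numbers came from sample titles. The 2 tables share 17227 identifiers and were fitted separately.

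Counts were analysed in R 4.3.3 with edgeR 4.0.16 (filterByExpr, TMM, robust quasi-likelihood test), with Benjamini-Hochberg adjustment over all tested genes at 0.05. Standard errors and 95% intervals come from that fit. The fits were tested on simulated data. Alternatives were DESeq2 1.42.0, limma-voom (limma 3.58.1), upper quartile or RLE scaling, no scaling factors, scaling without mitochondrial genes, other filters, a replicate block, a split of the parental replicates, a stricter FDR of 0.01, leave-one-out fits and glmTreat at 1.2-fold. Lengths came from GENCODE lifted to GRCh37, and promoters from RefSeq.

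The members and lists were chosen with earlier results of these data known. By rule, every library's value is given for up to 6 mitochondrial genes called or largest in change, for TFAM, POLRMT, TFB1M, TFB2M, PPARGC1A and NRF1, and for the 3 called nuclear members with the largest rise and fall. Of the wider lists, the 4 largest called rises and falls are named, except 1 gene that is not reported here. Levels without EGFP replicate 1 and the order of plus-strand genes were added after seeing the data.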

Additional observations from a re-analysis of the deposited data

Results flagged for a closer look

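In the parental experiment each of the 34 members was checked in both groups, and in 4 of these 68 sets of 4 libraries 1 library lay far from the other 3 by Dixon's test, where chance flags about 1 in 20. MT-ND6 stood at 822 CPM in DMSO replicate 1 against 887 to 888 in the others. MT-ND2 stood at 4150 CPM in dTAG47 replicate 1 against 3990 to 4000. MTIF2 stood at 55.9 CPM in dTAG47 replicate 3 against 62.4 to 63.6, and SLIRP at 55.3 CPM in dTAG47 replicate 2 against 61.7 to 62.4. Groups of 3 libraries were not tested this way.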

How the results depend on the processing

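No member called in the first experiment reversed under any alternative run. Of the members' values recomputed under the alternatives, 492 kept their side of the threshold with OmoMYC, 33 lost their call and 18 gained one, and with dTAG47 699 kept it and 15 gained one. With no filter on low counts MT-CYB lost its call (adjusted p = 0.0765). Against a fold change of 1.2 (glmTreat), 6 mitochondrial genes were higher and 5 nuclear members lower. The share of all tested genes called was counted for the main fits only, so none stands beside the member counts in this paragraph. Leaving out single libraries gave 7 to 13 mitochondrial genes called higher and a median of the nuclear members of -0.36 to -0.25. The replicate numbers paired the libraries weakly at most (correlations of same-numbered deviations -0.07 to 0.29 and 0.01 to 0.16). Only replicate 3 of EGFP and OmoMYC were each other's best match. In parental cells, replicates 1 and 2 differed from 3 and 4 in some members in both groups, as given above. With the replicate block, 8 mitochondrial genes were called with OmoMYC, and with dTAG47 2 mitochondrial genes and 1 nuclear member were called higher. With dTAG47, the factor for replicates 1 and 2 against 3 and 4 gave 3 mitochondrial genes and 1 nuclear member higher and 1 lower, replicates 3 and 4 alone gave 3 and 1 higher and 2 lower, and leaving out single libraries gave 0 to 1 mitochondrial genes higher. The cause was not tested. The tables list no MT- gene beyond the 13, so a share over every MT- gene is the same value.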
